A study of Mus musculus with 14 samples.

Results

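The 39 genes described here carry out the activation, mitochondrial oxidation and peroxisomal oxidation of fatty acids and the making of ketone bodies, together with a few targets of the fatty acid receptor PPAR alpha. They were chosen by gene symbol from a fixed list, with earlier results of these data known. Each of the 39 had 1 row among the 55357 genes of the files. Liver RNA of 8 model and 6 control samples of male C57BL/6 mice aged 5 to 6 weeks was compared. Model mice were given lipopolysaccharide (LPS, a component of the bacterial cell wall) at 10 µg/kg and D-GalN (D-galactosamine, a sugar that injures hepatocytes) at 300 mg/kg into the peritoneum. Control mice were given saline. Livers were taken at 24 h, when the labels describe the model livers as in acute liver failure, and poly(A) RNA was sequenced. The samples hold no group given LPS or D-GalN alone. No label says that each sample is a separate animal, so the p-values reflect only how much these samples spread.

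Fatty acids enter hepatocytes, are tied to coenzyme A by acyl-CoA synthetases, and are carried into mitochondria on carnitine, where the beta-oxidation spiral shortens the chain in steps and passes electrons to the respiratory chain through the electron transfer flavoprotein. Peroxisomes run a parallel spiral with their own enzymes for very long, branched and other chains that mitochondria handle poorly. In fasting, the liver turns the acetyl-CoA that results into ketone bodies, and PPAR alpha drives transcription of many of these genes.

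All 39 genes had enough reads to be tested. In model livers 4 of them rose and 9 fell (edgeR quasi-likelihood test, Benjamini-Hochberg adjusted p under 0.05), and 26 did not pass. That is 33.3% of the genes, against 47.9% of all 12915 genes tested; 26.6% of all genes tested were higher and 21.3% were lower. When library totals replaced TMM factors as the scale between libraries, 2 rose and 16 fell, and with an offset for gene length and GC content 3 rose and 14 fell. The median log2 fold change was -0.18 over the 39 genes and 0.01 over all genes tested. Values of every library as scaled counts (CPM, counts scaled to the library total with TMM factors) did not overlap between the groups for Pdk4 and Acsl5, which were higher, and for Decr2, which was lower. Such separation was found for 23.2% of all genes tested, 14.6% higher and 8.63% lower.

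**Figure D1:**
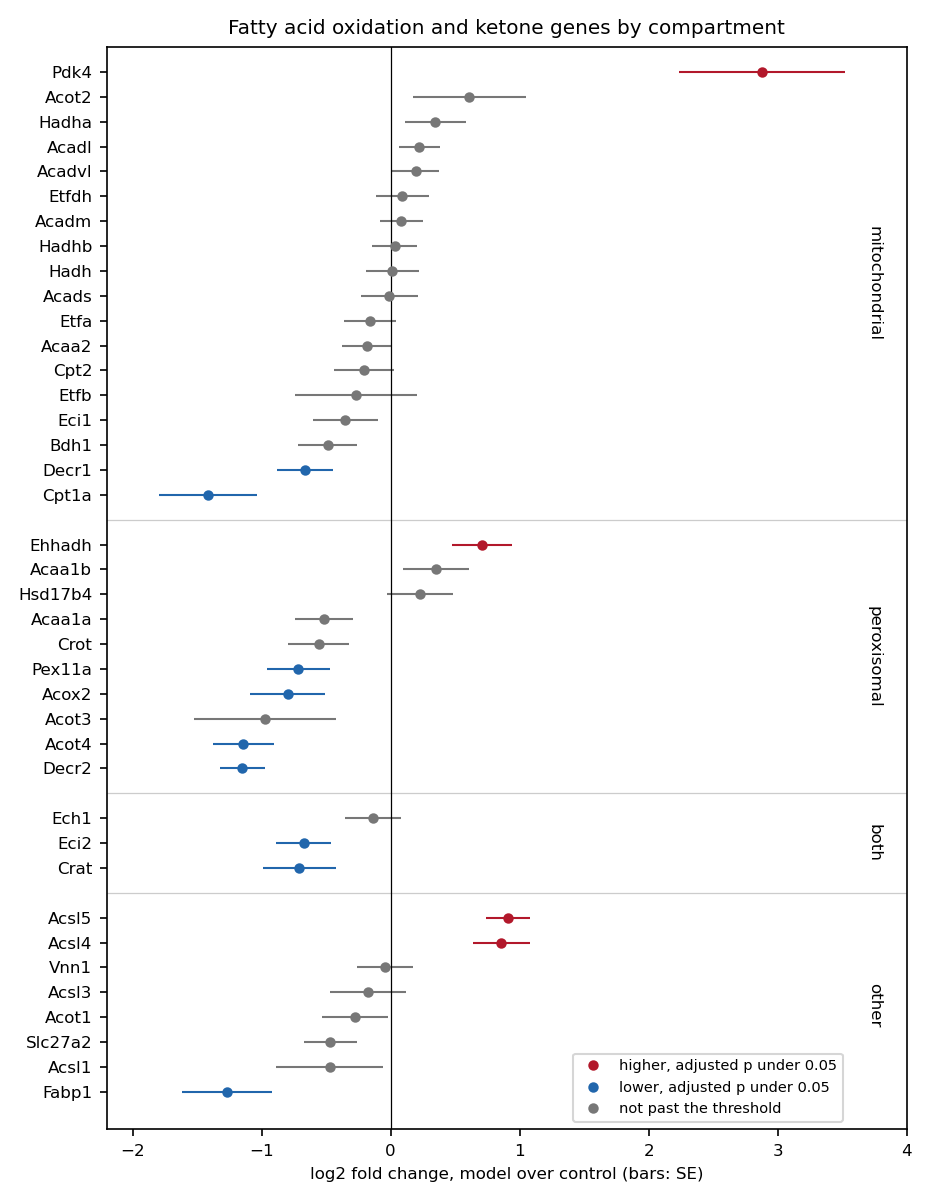
Log2 fold change of each of the 39 genes, model over control (points) with its standard error (bars), grouped by the compartment in which the protein works. The 18 mitochondrial genes have a median of 0.00, and Pdk4, Decr1 and Cpt1a are those past the threshold. The 10 peroxisomal genes have a median of -0.64, with points on both sides of 0.

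The libraries held 10329469 to 16639972 gene counts in model livers and 7914120 to 14463540 in controls. Markers of hepatocytes summed to 71234 to 83671 CPM in model livers and 47037 to 68047 CPM in controls, with 1 of 7 markers called, higher. Leukocytes and blood moved with the groups. All 8 neutrophil markers were higher, with a sum of 1152 to 2808 CPM in model livers and 2.43 to 16.1 CPM in controls. Each of the 7 monocyte markers was higher, summing to 437 to 714 CPM in model livers and 116 to 328 CPM in controls, and all 5 erythroid markers were higher as well (1210 to 25560 CPM, against 422 to 1611 CPM). Of cholangiocyte markers 5 of 5 rose, of Kupffer cell markers 2 rose and 2 fell among 6, of endothelial markers 3 rose and 2 fell among 6, and of stellate cell markers 4 rose and 1 fell among 6. Muscle markers summed to at most 0.621 CPM in any library. In whole tissue, fewer cells of a type and less RNA per cell cannot be told apart. The part of these cells in the results below was not tested.

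The genes of uptake and activation moved in opposite directions. Fabp1 encodes the liver fatty acid binding protein, which carries fatty acids through the cytosol of hepatocytes. Its transcript was by far the most abundant of the 39 per length, at 7720 ± 3607 CPM per kb of exon in model livers and 18608 ± 8981 in controls (SD, n = 8 and 6). In CPM it was at 2119 at the lowest, 3434 at the median and 7306 at the highest in model livers, against 3873, 10324 and 16326 CPM in controls. The model libraries lay mostly below the controls, although control 6 and control 3 lay within their range. Fabp1 fell, with a log2 fold change of -1.27 (SE 0.35, adjusted p = 0.00586). The bases around its start are shown because Fabp1 was the only gene with a match to a loose form of the repeat that PPAR alpha binds, AGGTCA, any base, AGGTCA, there. The sequences here are from RefSeq (GRCm38.p6), whose promoter table held 34 of the 39 genes by symbol, and run from 250 bases before to 50 bases after each start. For Fabp1 the window is chr6:71199629-71199928, plus strand, and capitals mark the match on the other strand, which has any base allowed at place 4 of the first AGGTCA, 67 to 55 bases before the start.
Fabp1: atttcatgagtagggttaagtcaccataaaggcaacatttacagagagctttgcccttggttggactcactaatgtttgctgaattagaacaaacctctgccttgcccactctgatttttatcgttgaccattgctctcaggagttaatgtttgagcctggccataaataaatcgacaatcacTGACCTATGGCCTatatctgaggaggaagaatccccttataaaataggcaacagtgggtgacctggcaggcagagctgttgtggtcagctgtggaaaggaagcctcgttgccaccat
On either strand, the loose repeat was found in 0.0945% of all 32817 windows of the table. The strict repeat was found in 0.0396% of them and in 0 of the 34. A lone AGGTCA, which both repeats contain, was found for 7 of the 34 genes (Acadm, Acadvl, Acot3, Acot4, Cpt1a, Fabp1 and Slc27a2) and in 16.3% of all windows. Genes were counted if any of their windows matched, so shares of genes and of windows are unlike units. A match describes these letters only.

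Of the acyl-CoA synthetases, which activate long-chain fatty acids, Acsl5 and Acsl4 rose. Acsl5 was at 341, 380.4 and 443 CPM (lowest, median, highest) in model livers, against 162, 201 and 289 CPM in controls. Every model library was above every control library, and the log2 fold change was 0.91 (SE 0.17, adjusted p = 0.00025). Acsl4, the form with a preference for arachidonic acid, was at 43.7, 52.2 and 102 CPM in model livers, against 25.5, 31.5 and 45.8 CPM in controls. The groups overlapped only through control 6 and model 6, and model 7 and model 8 stood above the other model libraries, at 102 and 84.0 CPM. The log2 fold change of Acsl4 was 0.86 (SE 0.22, adjusted p = 0.00419), and the call was lost with library totals (adjusted p = 0.0682). Acsl1, Acsl3 and Slc27a2 were not called, with log2 fold changes of -0.47 for Acsl1 and -0.18 for Acsl3. Slc27a2, which takes up and activates fatty acids and has a high level per length (141 ± 26.0 CPM per kb in model livers and 195 ± 59.1 in controls), was at 378, 511 and 670.3 CPM in model livers, against 467, 733 and 1051 CPM in controls. Its groups overlapped widely (log2 fold change -0.47, SE 0.21, adjusted p = 0.0707).

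Of the 4 genes that move acyl groups onto and off carnitine, 2 fell. Cpt1a, the carnitine palmitoyltransferase of the outer mitochondrial membrane and the controlled step of entry, was at 37.8, 49.1 and 93.8 CPM in model livers, against 59.1, 127 and 411 CPM in controls. Model 2, model 7 and model 8 reached into the control range, and control 6 stood far above the other controls. The log2 fold change was -1.41 (SE 0.38, adjusted p = 0.00536). Without control 6 it was -0.86 (adjusted p = 0.0299). Cpt2, which completes the transfer on the inner membrane, did not pass (log2 fold change -0.21, SE 0.23, adjusted p = 0.484). Crat, an acyltransferase of short chains in mitochondria and peroxisomes, was at 6.74, 14.97 and 21.0 CPM in model livers, against 12.7, 20.4 and 34.9 CPM in controls. Its groups overlapped in most of their range. Crat fell just past the threshold (log2 fold change -0.71, SE 0.28, adjusted p = 0.0461), and the call was lost in 11 of 25 other settings, including each that left out model 1, 6, 7 or 8, or control 2, 4, 5 or 6. Crot, the peroxisomal octanoyltransferase, narrowly missed the threshold (log2 fold change -0.56, SE 0.24, adjusted p = 0.06).

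**Figure D2:**
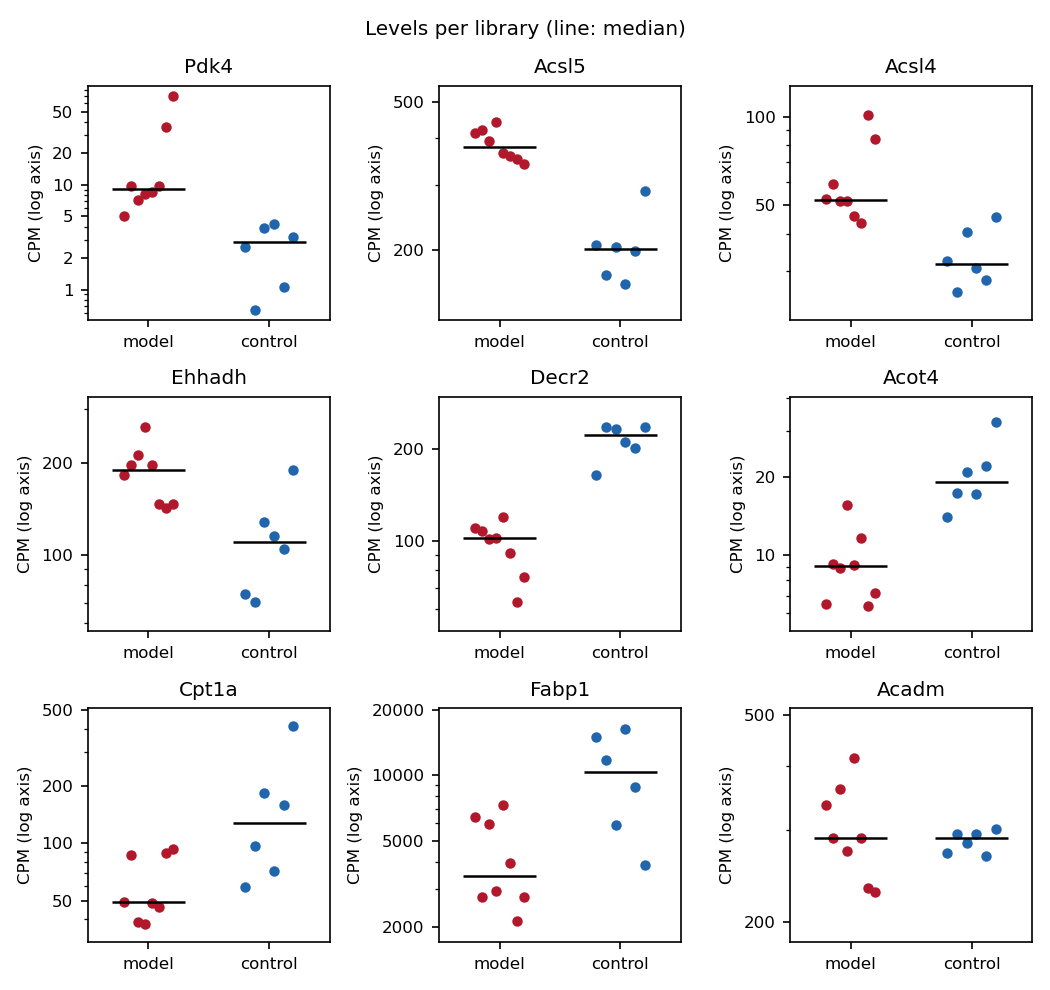
CPM of 9 genes in each library (points, log axes; lines are medians), with 8 model libraries left of 6 control libraries. Pdk4 and Acsl5 lie above and Decr2 below the other group throughout, whereas Acadm has nearly the same median in both groups, with a wider range in model livers.

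Of the 10 genes of the mitochondrial spiral 1 fell, Decr1, and 0 rose. Their median log2 fold change was 0.02. Decr1, the reductase that lets unsaturated chains continue through the spiral, was at 110.3, 161 and 261 CPM in model livers, against 189, 280.3 and 360.5 CPM in controls. Model 1 and model 5 lay within the control range and the remaining model libraries below it (log2 fold change -0.67, SE 0.22, adjusted p = 0.0175). The Decr1 call was lost without control 1 (adjusted p = 0.0503) and without model 7 and model 8 (adjusted p = 0.0514). Acadm, the medium-chain dehydrogenase, was at 228, 290.3 and 413 CPM in model livers, against 267, 289.9 and 302 CPM in controls. The controls sat inside the wider range of the model libraries (log2 fold change 0.08, SE 0.17, adjusted p = 0.705). Acaa2, the thiolase that ends each turn, was the most abundant of the spiral genes per length (435 ± 118 CPM per kb in model livers, 494 ± 49.6 in controls). In CPM it was at 444, 611 and 886 in model livers, against 654, 759.9 and 844 CPM in controls. Again the model range enclosed the controls (log2 fold change -0.18, SE 0.19, adjusted p = 0.457). The other 7 spiral genes, which include the chain-length dehydrogenases Acadvl, Acadl and Acads, both subunits of the trifunctional protein, Hadh and Eci1, had log2 fold changes of -0.35 to 0.35. Acadvl shares 1151 exonic bases with Dvl2 on the other strand, and the strand setting of the counting is not given in the sources used here. The same limit holds for called genes with such overlaps. These are Acsl5 (404 bases with Zdhhc6), Crat (411 with Gm16323), Eci2 (189 with Gm16984) and Acot4 (615 with 4732463B04Rik).

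The electron carriers that take over from the spiral were not called either, at log2 fold changes of -0.27 to 0.09. Etfa, one subunit of the electron transfer flavoprotein, was at 205, 284 and 421 CPM in model livers, against 229, 342 and 429 CPM in controls. Its groups overlapped almost fully (log2 fold change -0.16, SE 0.20, adjusted p = 0.538). Its partner Etfb was counted at only 1.01 to 7.14 CPM in model livers and 1.204 to 10.02 CPM in controls. In the annotation supplied, 617 of the 1164 exonic bases of Etfb lie in Gm45233 on the same strand, so its counts are uncertain. Bdh1, which turns acetoacetate into beta-hydroxybutyrate, was at 64.2, 121 and 164 CPM in model livers, against 106, 158 and 222 CPM in controls. Model 7 and model 8 lay below every control, while the other model libraries overlapped with them (log2 fold change -0.49, SE 0.23, adjusted p = 0.0879).

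Of the 10 peroxisomal genes 4 fell and 1 rose. Decr2, the peroxisomal counterpart of Decr1, was at 63.1, 102 and 119.6 CPM in model livers, against 164, 222 and 237 CPM in controls. All model libraries were below all controls (log2 fold change -1.15, SE 0.17, adjusted p = 3.12e-05), and the call held in each of the 25 other settings. Acot4, a peroxisomal thioesterase that frees succinate and glutarate from coenzyme A, was at 6.38, 9.07 and 15.6 CPM in model livers, against 14.0, 19.0 and 32.3 CPM in controls. Only model 4 reached the control range (log2 fold change -1.14, SE 0.24, adjusted p = 0.000728). Acox2, the oxidase of branched chains and bile acid precursors, was at 38.99, 61.1 and 96.7 CPM in model livers, against 48.9, 100.2 and 176 CPM in controls. Control 1, control 2 and control 4 lay within the model range (log2 fold change -0.80, SE 0.29, adjusted p = 0.0307), and the call was lost in 10 of 25 other settings, including each that left out model 6 or 7, or control 3, 5 or 6. Pex11a, which acts in the division of peroxisomes, was at 31.998, 51.6 and 96.6 CPM in model livers, against 78.0, 82.7 and 142 CPM in controls. Model 5 and model 8 overlapped with the controls and the other 6 model libraries were below them (log2 fold change -0.72, SE 0.24, adjusted p = 0.0215). The Pex11a call was lost without control 4 and without model 3 and model 4, with adjusted p up to 0.071.

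Eci2, an enoyl-CoA isomerase of peroxisomes and mitochondria, was at 107, 190.3 and 295 CPM in model livers, against 246, 314 and 384 CPM in controls. Model 5 and model 8 overlapped with the controls (log2 fold change -0.67, SE 0.22, adjusted p = 0.0157), and the call of Eci2 was lost without model 3 and model 4 (adjusted p = 0.0504). Ech1, a dienoyl-CoA isomerase of both organelles, was at 189, 255 and 438 CPM in model livers, against 244, 339 and 351 CPM in controls. The model range enclosed the controls (log2 fold change -0.14, SE 0.22, adjusted p = 0.627). Against these, Ehhadh rose. Ehhadh, the peroxisomal bifunctional enzyme that carries out hydration and dehydrogenation, was at 142, 189.9 and 262 CPM in model livers, against 70.6, 110.1 and 189.5 CPM in controls. Only control 6 reached the model range (log2 fold change 0.71, SE 0.23, adjusted p = 0.0176). The call was lost with library totals, with upper-quartile factors, with the length and GC offset and without model 3 and model 4, with adjusted p up to 0.19. Hsd17b4, the second bifunctional enzyme, did not pass (log2 fold change 0.23, SE 0.26, adjusted p = 0.482).

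The peroxisomal thiolases Acaa1a and Acaa1b, close copies of each other, differed in their ratio. Acaa1b was at 302, 632 and 1057 CPM in model livers, against 404, 514 and 634 CPM in controls, and was high per length (343 ± 135 CPM per kb in model livers, 269 ± 46.8 in controls). Model 3 and model 5 were the highest and model 7 and model 8 the lowest of all libraries (log2 fold change 0.35, SE 0.26, adjusted p = 0.276). Acaa1a did not pass in the other direction (log2 fold change -0.52, SE 0.22, adjusted p = 0.0663). This pair was chosen for a ratio test with earlier results of these data known, so the p-value below is not that of an independent test. The ratio of Acaa1b to Acaa1a counts within a library needs no scaling between libraries. Its geometric mean was 6.16 in model livers and 3.45 in controls, a log2 difference of 0.84 (SE 0.15, exact two-sided permutation test over 3003 splits, p = 0.000999, adjusted over 10 ratios 0.00999). The log2 ratios ran from 2.01 to 2.92 in model livers and from 1.28 to 2.15 in controls, and model 8 was the only model library within the control range. Of the 50-base windows, 34.0% of those of Acaa1a and 35.5% of those of Acaa1b occur in the other gene. Reads there may be missing from both counts. Acaa1a also shares 290 exonic bases with Myd88, and Acaa1b 224 with Dlec1, each on the other strand. The strand setting of the counting is not given, so the ratio is uncertain on both grounds. The starts of the pair are shown because that ratio differed. They lie at chr9:119341044-119341343 (Acaa1a, plus strand) and chr9:119157044-119157343 (Acaa1b, minus strand), and capitals mark CCAAT on either strand, with a pair of overlapping matches in Acaa1b.
Acaa1a: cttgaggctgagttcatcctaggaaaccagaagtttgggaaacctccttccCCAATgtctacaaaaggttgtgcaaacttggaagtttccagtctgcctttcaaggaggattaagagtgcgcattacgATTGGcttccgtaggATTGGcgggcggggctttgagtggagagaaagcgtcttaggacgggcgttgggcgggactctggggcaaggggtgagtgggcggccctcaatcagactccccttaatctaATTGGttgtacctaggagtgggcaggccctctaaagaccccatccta
Acaa1b: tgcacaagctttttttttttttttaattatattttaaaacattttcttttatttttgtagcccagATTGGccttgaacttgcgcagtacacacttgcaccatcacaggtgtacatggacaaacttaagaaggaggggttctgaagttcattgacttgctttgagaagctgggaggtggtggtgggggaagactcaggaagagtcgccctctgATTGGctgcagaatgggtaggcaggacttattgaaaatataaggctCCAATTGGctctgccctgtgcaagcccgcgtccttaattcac
CCAAT was found for 19 of the 34 genes, each counted if any of its windows matched, and in 37.4% of all windows of the table. The first is a share of genes and the second of windows, so they are unlike units.

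By compartment, 1 of the 18 mitochondrial genes rose and 2 fell (median log2 fold change 0.00), and 1 of the 10 peroxisomal genes rose and 4 fell (median -0.64). Of all genes tested 47.9% were called, 26.6% higher and 21.3% lower. The called share of the peroxisomal genes was thus close to that of all genes tested, and that of the mitochondrial genes was below it. By direction, only the lower share of the peroxisomal genes was above that of all genes tested. Of the 3 genes of both organelles 2 fell, and of the 8 genes of other places, mostly synthetases and carriers, 2 rose and 1 fell. The peroxisomal median was 0.64 below the mitochondrial one on the log2 scale, and between 0.52 and 0.70 below it in the other settings. Taken library by library against the control mean, the peroxisomal median minus the mitochondrial median was -0.79 to -0.28 in model livers and -0.35 to 0.34 in controls. It was below 0 in all 8 model libraries and in 3 of 6 controls, and model 8 lay within the control range. No test is given for this difference, which rests on which genes are in the list.

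Ratios of matched genes within a library were tested for 10 pairs, with p-values adjusted over the 10. The pairs were chosen with earlier results of these data known, so the p-values are not those of an independent test. Cpt1a over Cpt2 fell to a geometric mean of 0.891 in model livers, against 1.87 in controls (log2 difference -1.07, SE 0.25, exact permutation p = 0.002, adjusted 0.00999). Its log2 ratio was -0.61 to 0.41 in model livers and 0.16 to 1.65 in controls, with model 2, model 7 and control 1 in the shared range. Hadhb over Hadha, the 2 subunits of the trifunctional protein, was 0.605 in model livers and 0.803 in controls (log2 difference -0.41, SE 0.15, exact permutation p = 0.014, adjusted 0.045). Leaving out 1 library at a time gave adjusted p of 0.00389 to 0.101 for that pair. In the annotation supplied, 62.4% of the 50-base windows of Hadhb occur elsewhere, mostly in the pseudogene Gm13910. The summed peroxisomal thiolases over Acaa2 had a geometric mean of 1.14 in model livers and 0.903 in controls (log2 difference 0.33, SE 0.12, exact permutation p = 0.018, adjusted 0.045), with adjusted p of 0.00874 to 0.117 when 1 library was left out.

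Hadha and Hadhb start 273 bases apart and are read away from each other, so that their windows share 228 bases. The Hadhb window, chr5:30155003-30155302 on the plus strand, is shown for that reason, with the shared bases in capitals.
Hadhb: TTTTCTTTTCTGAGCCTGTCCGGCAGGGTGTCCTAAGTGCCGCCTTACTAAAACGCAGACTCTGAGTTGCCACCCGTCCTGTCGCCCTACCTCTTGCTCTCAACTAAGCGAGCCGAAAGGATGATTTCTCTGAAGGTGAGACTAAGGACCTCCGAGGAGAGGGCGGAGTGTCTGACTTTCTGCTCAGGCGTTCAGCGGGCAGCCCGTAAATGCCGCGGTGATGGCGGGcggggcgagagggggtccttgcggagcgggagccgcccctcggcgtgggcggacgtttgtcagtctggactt
The other 6 ratios did not pass after adjustment. Decr2 over Decr1 differed by -0.48 (SE 0.23, exact permutation adjusted p = 0.0777) and Acsl4 over Acsl1 by 1.30 (SE 0.54, exact permutation adjusted p = 0.0777) on the log2 scale. For Acsl4 over Acsl1, model 7 and model 8 stood apart, at log2 ratios of 0.04 and 0.20. The remaining 6 model libraries were at -2.90 to -2.16, and the controls at -4.07 to -2.22. Ehhadh over Hadha differed by 0.31 (SE 0.21, exact permutation adjusted p = 0.182), Crot over Cpt2 by -0.52 (SE 0.37, adjusted p = 0.25), Eci2 over Eci1 by -0.27 (SE 0.25, adjusted p = 0.398) and Etfb over Etfa by -0.05 (SE 0.43, adjusted p = 0.896). The Etfb ratio is as uncertain as the Etfb counts, since 67.3% of the 50-base windows of Etfb occur in Gm45233.

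**Figure D3:**
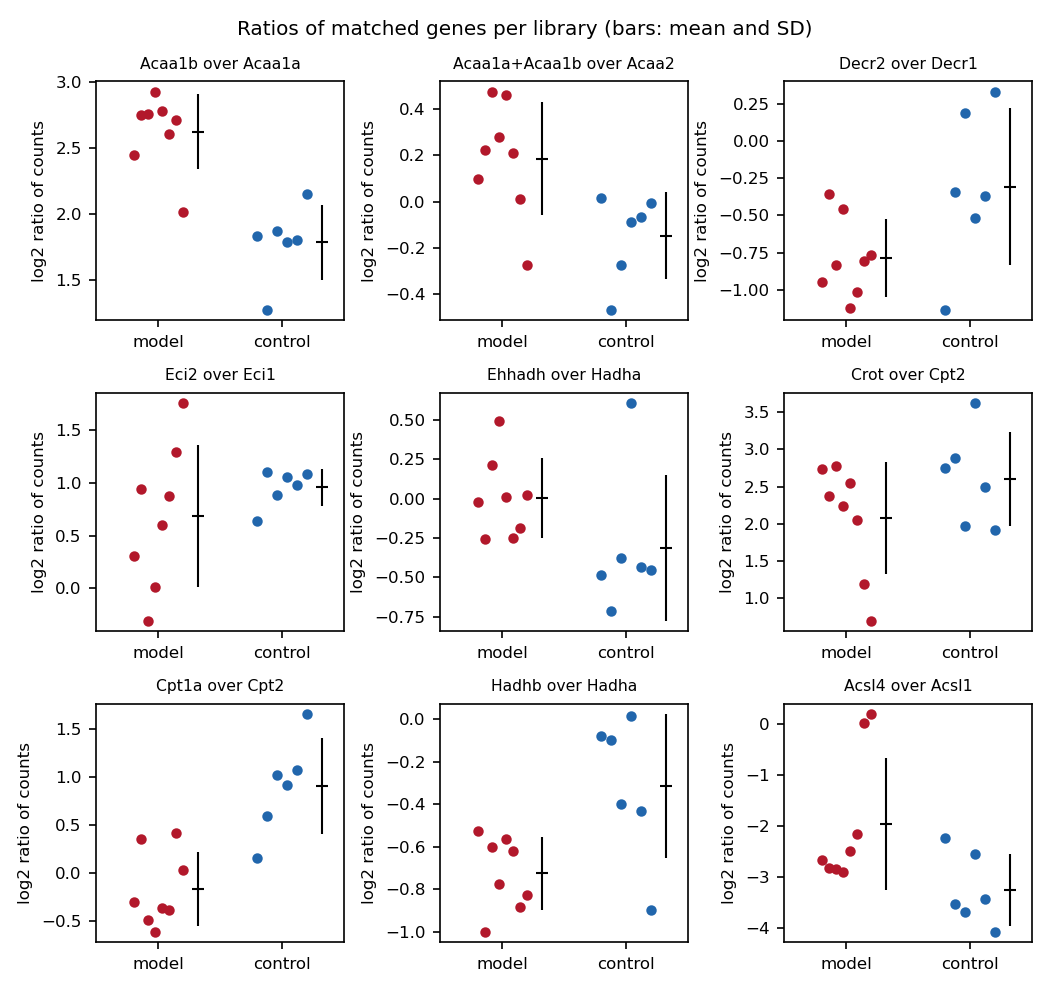
Log2 ratio of the counts of matched genes in each library for 9 of the 10 pairs (points; bars are mean and SD), with 8 model libraries left of 6 control libraries. Acaa1b over Acaa1a lies higher and Cpt1a over Cpt2 lower in model livers, with a narrow overlap in each.

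Pdk4 had the largest fold change of the 39 genes. It encodes a kinase that inhibits pyruvate dehydrogenase and so spares glucose, and is a PPAR alpha target. It was at 5.09, 9.17 and 70.3 CPM in model livers, against 0.636, 2.87 and 4.24 CPM in controls. All model libraries were above all controls, and model 7 and model 8, at 35.4 and 70.3 CPM, were above the 9.86 CPM of the next model library. The log2 fold change was 2.88 (SE 0.64, adjusted p = 0.00134). Without model 8 it was 2.20 and without model 7 and model 8 together 1.68, both still called. Vnn1, a pantetheinase and also a PPAR alpha target, did not pass (log2 fold change -0.04, SE 0.22, adjusted p = 0.878).

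Of the thioesterases, Acot1, Acot2 and Acot3 were not called, at log2 fold changes of -0.97 to 0.61. Their counts were low, from 0.107 CPM in the lowest model library for Acot3 to 23.3 CPM in the highest for Acot1, and between 19.5% and 33.2% of their 50-base windows occur in other genes. Acot2 was at 10.2 CPM in model 8, above the 0.926 to 2.98 CPM of the remaining model libraries and the 1.03 to 2.85 CPM of the controls.

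For most of the 39 genes the model libraries spread more widely than the controls. The coefficient of variation of CPM was larger in model livers for 26 of 39 genes, and for the 10 genes of the mitochondrial spiral its median was 24.3% in model livers and 12.4% in controls. Model 7 or model 8 was the lowest model library for 29 of the 39 genes, while model 5 was the highest for 18. Among controls, control 6 was the highest for 23 genes and the lowest for 9. The same counts were not made over all genes tested, so they do not single out the 39 genes. Across the 39 genes the log2 difference between control 6 and control 1 went with exonic length (Spearman's rho 0.49, n = 39 genes that share the same libraries). For the difference between model 7 and model 5 rho was 0.23, and for the model over control fold change it was -0.10. Adipocyte markers were found in model 8, with Adipoq at 3.73, Plin1 at 1.45 and Lep at 0.345 CPM, and all 3 were at 0 in every control. The 4 adipocyte markers summed to 0.477 to 18.7 CPM in model livers and 0.356 to 5.27 CPM in controls. The part of adipose tissue, of gene length and of library depth in these differences was not tested.

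**Figure D4:**
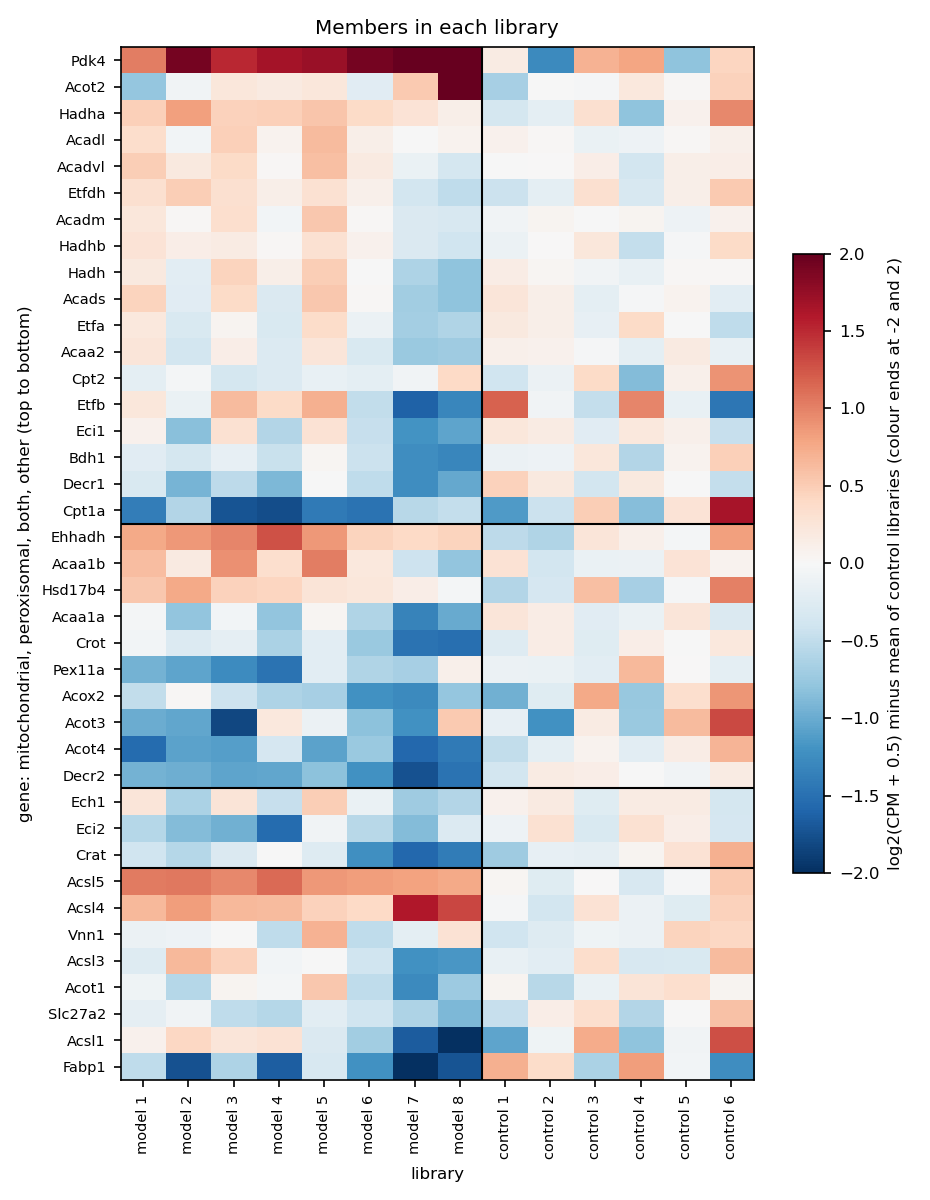
Log2 CPM of the 39 genes in each library minus the mean of the 6 controls, with model libraries left of controls and lines between compartments. Model 7 and model 8 are lowest for most mitochondrial genes and highest for Pdk4, and control 6 is high for Cpt1a and low for Fabp1.

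A list of 119 other genes of the same pathways and their regulators places these values. Of them 110 were tested, and 16 rose and 37 fell, which is 48.2% and close to the 47.9% of all genes tested. By direction the shares differed, with 14.5% higher and 33.6% lower, against 26.6% and 21.3% of all genes tested. With library totals as the scale 9 rose and 54 fell, and with the length and GC offset 12 rose and 50 fell. Among 35 peroxisomal genes of the list 1 rose and 18 fell, and among 21 mitochondrial genes 2 rose and 3 fell. The 35 include the 12 Pex genes described below, of which 9 fell and 0 rose. Of 19 PPAR alpha targets 5 rose and 6 fell, and of 13 genes of lipolysis and uptake 3 rose and 2 fell. The regulators were mostly lower, with 8 of 14 down and 2 up. Ppara, the receptor itself, was at 5.28, 14.5 and 26.1 CPM in model livers, against 20.2, 29.2 and 51.7 CPM in controls. Its groups overlapped through model 2, model 5, control 1, control 2 and control 5 (log2 fold change -1.01, SE 0.31, adjusted p = 0.0122). Ppargc1a, a coactivator of PPAR alpha, was at 0.596, 1.17 and 1.94 CPM in model livers, against 0.955, 1.75 and 3.56 CPM in controls. The Ppargc1a groups overlapped widely (log2 fold change -0.94, SE 0.37, adjusted p = 0.0426), and the call was lost in 14 of 25 other settings.

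Of the 12 genes of this list with the largest fold changes, 5 rose. Cidec, a protein of lipid droplets, averaged 36.6 ± 33.3 CPM in model livers and 1.95 ± 1.07 CPM in controls (SD, n = 8 and 6; log2 fold change 4.25, SE 0.84, adjusted p = 0.000458), although model 3 and model 4 were within or below the control range. Without model 7 and model 8 the log2 fold change of Cidec was 3.52. Hilpda, an inhibitor of triglyceride lipolysis, averaged 60.7 ± 18.2 CPM in model livers and 3.38 ± 1.35 CPM in controls, with no overlap (log2 fold change 4.19, SE 0.31, adjusted p = 6.78e-09). Slc16a6, a ketone body exporter in zebrafish liver, averaged 22.1 ± 9.24 CPM in model livers and 2.55 ± 0.515 CPM in controls, again with no overlap (log2 fold change 3.11, SE 0.30, adjusted p = 1.79e-07). Fabp4, the fatty acid binding protein of adipocytes and macrophages, was higher by 2.44 on the log2 scale (SE 0.35), and its model libraries were at 77.3 to 187 CPM, against 8.15 to 41.8 CPM in controls. Pnpla3, a lipase of lipid droplets, was higher by 2.62 on the log2 scale (SE 0.76, and 4.39 without control 1) at 0.414 to 2.79 CPM in model livers and 0 to 1.16 CPM in controls. The neutrophil and monocyte marker sums given above were higher in model livers too, while the adipocyte sums of the groups overlapped, and their part in these values was not tested.

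The remaining 7 of these 12 genes fell. Nudt7, a peroxisomal hydrolase of coenzyme A, averaged 327 ± 225 CPM in model livers and 1519 ± 510.1 CPM in controls (log2 fold change -2.22, SE 0.43, adjusted p = 0.000381). Pank1, which makes coenzyme A, averaged 55.1 ± 16.99 CPM in model livers and 246 ± 27.7 CPM in controls (log2 fold change -2.16, SE 0.21, adjusted p = 2.15e-07). Neither had overlapping groups, and the same held for Pxmp4, a peroxisomal membrane protein (log2 fold change -2.16, SE 0.23), for Acnat1, an acyltransferase (-2.15, SE 0.29), and for G0s2, an inhibitor of triglyceride lipolysis (-1.90, SE 0.38). Abcd2, a peroxisomal fatty acid transporter (-2.42, SE 0.44), and Fgf21, a fasting hormone of the liver (-2.69, SE 0.57), fell with some overlap, and Fgf21 was at most 1.08 CPM in model livers and 2.95 CPM in controls. Without model 5 the log2 fold change of Fgf21 was -3.38. The peroxins, the Pex proteins that build and fill peroxisomes, were counted after their values were seen. Of 12 in the list 9 fell and 0 rose, with a median log2 fold change of -1.03, and 8 to 11 were lower in the other settings. Of all genes tested 21.3% were lower. Among the 12, 6 were lower without overlap, as were 8.63% of all genes tested. Since the group was picked for these values, nothing is read from the difference.

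Of the 8 genes of ketone handling in the list, 3 rose (Oxct1, Slc16a1 and Slc16a6) and 0 fell. The called share of 37.5% is below the 47.9% of all genes tested, but above the 26.6% of them that were higher. All 3 were higher without overlap, as were 14.6% of all genes tested. Oxct1, which serves the use of ketones outside hepatocytes, was at 5.29 to 7.69 CPM in model livers and 2.96 to 4.92 CPM in controls. Slc16a1, a carrier of lactate and ketone bodies, was at 33.4 to 64.1 CPM in model livers and 14.3 to 24.7 CPM in controls. Both were chosen after their values were seen.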

How the data were processed

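Poly(A) RNA libraries of 14 liver samples were sequenced on an Illumina NovaSeq, per the labels' protocols, and aligned with HISAT2 to GRCm39, per the submitters' processing notes. The deposited files hold raw read counts per gene. Which counter, strand setting and gene annotation were used is not stated here. Summary lines that name no gene, 27.4% to 45.6% of the entries of a library, were left out; reads aligned to several places, 13.4% to 18.6%, are among them, so close copies lose reads. The 39 genes, the lists and the pairs were chosen with earlier results of these data known. Genes were kept with filterByExpr and tested with edgeR 4.0.16 in R 4.3.3 (TMM factors, robust quasi-likelihood fit, group only, Benjamini-Hochberg over 12915 genes). The SE is the log2 fold change over the root of F. CPM uses TMM factors. CPM per kb uses exonic lengths of the GENCODE annotation supplied (GRCm38), matched by gene ID. Pair ratios used counts plus 0.5. DESeq2 1.42.0, limma 3.58.1 and the other settings were alternatives. Scripts were tested on simulated data. Each called gene, the 5 uncalled genes highest per kb, Bdh1 and Acadm have values in full; from the 119 other genes the 12 called genes with the largest fold change and at least 1 CPM, Ppara and Ppargc1a are named. No pair of libraries of a group was alike within sampling noise. The hepatocyte marker Tf was not analysed here.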

Additional observations from a re-analysis of the deposited data

Results flagged for a closer look

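A library far from the rest of its group was found in 11 of 126 groups of values tested. The rule flags about 1 in 20 groups when values are independent and normally spread. Here most groups hold untransformed CPM and all share the same libraries, so the count cannot be set against that rate. In model 8, Pdk4 was at 70.3 CPM (others 5.09 to 35.4), Cpt2 at 91.7 CPM (others 54.6 to 67.7) and Acot2 at 10.2 CPM (others 0.926 to 2.98). In control 6, Cpt1a was at 411 CPM (others 59.1 to 185) and Acsl5 at 289 CPM (others 162 to 207). In control 4, Acadvl was at 242 CPM (others 311 to 342), Pex11a at 142 CPM (others 78.0 to 90.9), and the log2 ratio of Ehhadh to Hadha at 0.60 (others -0.72 to -0.38). Fgf21 was at 1.08 CPM in model 5 (others 0 to 0.414). Pnpla3 was at 2.79 CPM in model 4 (others 0.414 to 1.41) and at 1.16 CPM in control 1 (others 0 to 0.106).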

How the results depend on the processing

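Of the 13 called genes among the 39 and the 53 among the other list, 0 turned their sign under an alternative. With library totals 2 of the 39 genes rose and 16 fell, the length and GC offset gave 14 lower, and the replicate block 5 lower. Of the other list 9 rose with library totals and 10 with upper-quartile factors, and 10 to 22 when 1 library was left out. Library totals, the offset and upper-quartile factors moved the median of all genes to -0.23, -0.19 and -0.14. The ratio of peroxisomal thiolases to Acaa2 was 0.27 without model 3 and model 4, 0.44 with the replicate block, 0.20 with the offset and 0.27 to 0.40 with 1 library left out, no longer called in the first 3. Hadhb over Hadha was -0.42 without model 3 and model 4, -0.36 without model 7 and model 8, -0.36 with the block (not called in these) and -0.53 to -0.34 with 1 library left out. With the block, Acaa1b over Acaa1a was 0.92 and Cpt1a over Cpt2 -1.20 (exact adjusted p = 0.0781 each, with only 6 pairs). Acsl4 over Acsl1 was 1.498 with the offset and then called. Decr2 over Decr1 ran from -0.65 to -0.35 and was called without control 1, and Ehhadh over Hadha from 0.23 to 0.50 and was called without control 4. With the block the calls of Fabp1 (adjusted p = 0.0587), Decr1 (0.103), Crat (0.29), Acox2 (0.281) and Ppargc1a (0.225) were lost. The cause of these shifts was not tested. The replicate numbers of the labels are shared by 6 pairs of a model and a control library, whose deviations correlated at -0.34 to 0.36, so they were not taken to pair the samples; the same 12 libraries without the block gave 5 higher and 6 lower. The comparison of those 12 libraries and the offset for pair ratios were chosen after seeing the data. Depth limits Acot2, Acot3, Fgf21 and Pnpla3, at a few CPM. Etfb was also at a few CPM, and its counts are uncertain because of the bases shared with Gm45233.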
